A study of Rattus with 18 samples.

Results

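The renal ion and nutrient transporters described here are the 116 genes of solute carrier families 3, 4, 5, 6, 7, 12, 13, 16, 17, 22, 26 and 34 on a rat expression array. They were chosen by gene name alone, from 144 of the 41012 probes for transcripts, and each gene was read from its brightest probe. The array measured glomerulus RNA of rats with the strain label SD and a weight of 200 g. Group day 0 received saline, and groups day 1, day 2, day 3, day 4 and day 5 received an anti-Thy1 antibody and were killed on that day; Thy1 is a surface protein of rat mesangial cells. Each day had 3 arrays, 18 in all. An array is called by its day and its numbered title, the controls being replicates 2, 4 and 5. The submitters' design text gives 3 glomeruli from each of 6 rats per time point, but no label ties an array to a rat. The p-values therefore rest on differences among arrays, which may be partly technical. The controls were killed at day 0, and all 5 comparisons share them. The labels used here state no age.

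Solute carriers are membrane proteins that move ions, sugars, amino acids and organic acids across cell membranes. In the kidney most of their transcripts belong to tubule cells: the proximal tubule takes back glucose, phosphate, sulfate and amino acids from the filtrate and secretes organic anions and cations, and the loop, distal tubule and collecting duct adjust sodium, potassium, chloride and bicarbonate. Other members serve every cell, among them the lactate carriers, the cationic amino acid carrier Slc7a1 and the cation-chloride cotransporters that set cell volume. The members were therefore described as 37 proximal tubule transporters, 7 transporters of the loop, distal tubule and collecting duct, 26 broadly expressed transporters, 29 neuronal and other-organ transporters and 17 others.

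Values are log2 processed signals relative to the 75th percentile of each array, so that 0 equals that percentile and a difference of 1 is a 2-fold change. A gene was tested if its probe was well above background on all arrays of at least 1 day; 90 of the 116 members and 23186 genes and transcripts in all were tested, with one limma fit over the 18 arrays and Benjamini-Hochberg adjustment over all of them. Changes are given against day 0 with the standard error of the fit (SE, n = 3 arrays per day), and "rose" or "fell" is used where the adjusted p was under 0.05. The tissue label was checked against markers: all 10 podocyte markers were tested, and so were all 19 proximal tubule markers. Of the 36 proximal tubule transporters tested, 35 were well above background on all 18 arrays, so the glomerulus RNA held tubule transcripts on control and treated arrays. In RNA of whole tissue, fewer cells of a type and less RNA per cell cannot be told apart. Days 0, 1, 3 and 5 were scanned on 1 day and days 2 and 4 on another, so for days 2 and 4 the scan day and the treatment cannot be told apart.

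At the 75th-percentile scaling more of the transporters fell than rose from day 2 onward, and a smaller share of them rose than of all genes on each day. On day 1, 14 of the 90 members rose and 12 fell, where 19.2% of all genes tested rose and 20.7% fell. On day 2 the counts were 3 and 21 (20.8% and 25.1% of all genes), on day 3 they were 4 and 22 (21.7% and 26%), on day 4 they were 8 and 18 (25.6% and 26.7%), and on day 5 they were 8 and 19 (20.9% and 23.4%). As shares of the 90 members, 15.6% rose and 13.3% fell on day 1, and 3.33% rose and 23.3% fell on day 2. Counting both directions, 26, 24, 26, 26 and 27 of the 90 changed on days 1 to 5, beside 40%, 45.9%, 47.7%, 52.3% and 44.3% of all genes. At this scaling the share of members that fell was near or below the background on every day. The median change of the members was -0.02, -0.10, -0.26, 0.11 and 0.10 on days 1 to 5, and that of all genes 0.06, 0.05, -0.02, 0.05 and 0.06. Over the whole course 26 members changed by the moderated F-test (28.9% of members, 53.1% of all genes). No member rose on one day and fell on another, and 40 of the 90 passed on no day (44.4%, beside 28.8% of all genes). Of the members tested, 3 entered through the controls alone, being above background on all arrays of no other day; Slc6a9 and Slc34a2 among them are counted as lower on each day, and Slc7a10 was not called. The counts depend on control replicate 4, which stood apart from the other controls: without it 4, 2, 1, 2 and 1 members rose and 5, 12, 20, 14 and 10 fell on days 1 to 5, beside 8.66%, 12%, 15.4%, 18.1% and 12.2% of all genes higher and 11.3%, 18.8%, 20.7%, 22.1% and 15.9% lower. Treated arrays also moved the counts of their own day. Without day 1 replicate 1, 6 rose and 6 fell on day 1 (11% and 12.3% of all genes). Without day 1 replicate 4, 4 rose and 6 fell (9.5% and 11.6%). With each array's median in place of the 75th percentile, 25, 13, 10, 32 and 33 members rose and 7, 9, 13, 10 and 10 fell, beside 35.8%, 39.4%, 38.1%, 42.4% and 42% of all genes higher and 12.6%, 16.5%, 16%, 16.7% and 12.9% lower, and the median change of all genes was 0.40, 0.43, 0.39, 0.47 and 0.51. With the mean of 12 reference genes as the scale, 4, 1, 1, 0 and 0 members rose and 36, 36, 61, 38 and 33 fell, beside 3.13%, 5.84%, 5.81%, 4.77% and 2.76% of all genes higher and 46.7%, 44.9%, 56.3%, 55.5% and 47.6% lower. The median change of all genes was then -0.53, -0.48, -0.67, -0.69 and -0.55, and on day 3 the share of members that fell, 67.8%, was above that of all genes. With the slide as a fixed block, few arrays are left to separate slide from day. On days 1, 3 and 5, 4, 0 and 0 members then rose and 6, 8 and 0 fell. Of all genes 6.41%, 4.01% and 0.16% were higher and 11.3%, 8.57% and 0.285% lower. Days 2 and 4 shared no slide with the other days, so this setting cannot compare them with day 0 and no counts for them are given here.

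Several of the falls were read by probes whose 60 bases join exons. The scanner files give each probe's first base in its transcript and its genome coordinates, for which the file headers name build rn4, and a probe whose coordinates span more than its own length and 20 bases was counted as spanning an intron. Of the 90 members tested, 24 were read by such a probe, 62 by a probe within 1 exon and 4 had no coordinates. On day 3, 11 of the 24 fell and 2 rose, against 8 and 2 of the 62 and 3 and 0 of the 4 without coordinates. Among all genes tested 23.3% of the intron-spanning probes, 25.6% of those within 1 exon and 35.1% of those without coordinates fell. The 7 probes printed here read large falls and a second site of genes whose probes disagree. Each is given 5′ to 3′ from the scanner files, in lower case throughout since no stretch of it is marked.
Slc16a12, base 927 (chr1:238645457-238647620, minus strand): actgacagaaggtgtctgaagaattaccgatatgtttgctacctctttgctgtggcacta
Slc17a4, base 968 (chr17:48332002-48332981, plus strand): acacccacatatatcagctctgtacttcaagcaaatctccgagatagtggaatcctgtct
Slc6a9, base 1693 (chr5:138330765-138333373, plus strand): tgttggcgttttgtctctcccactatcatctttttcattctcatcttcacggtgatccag
Slc34a2, base 1038 (chr14:62663454-62664614, minus strand): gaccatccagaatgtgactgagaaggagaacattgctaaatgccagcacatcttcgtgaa
Slc12a7, base 155 (chr1:30312992-30334030, minus strand): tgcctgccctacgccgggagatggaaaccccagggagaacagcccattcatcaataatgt
Slc12a7, base 2768 (chr1:30289948-30292386, minus strand): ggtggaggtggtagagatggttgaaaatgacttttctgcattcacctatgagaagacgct
Slc7a1, base 1682 (chr12:7247219-7247791, plus strand): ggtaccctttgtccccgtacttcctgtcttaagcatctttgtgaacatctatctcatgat
The first 5 read a fall, and the probe of Slc12a7 at base 2768 and that of Slc7a1 at base 1682 are second probes that were not the brightest of their gene. The probe of Slc12a7 at base 155 covers 21039 bases of genome, introns included, and the other 6 cover between 573 and 2609.

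**Figure D1:**
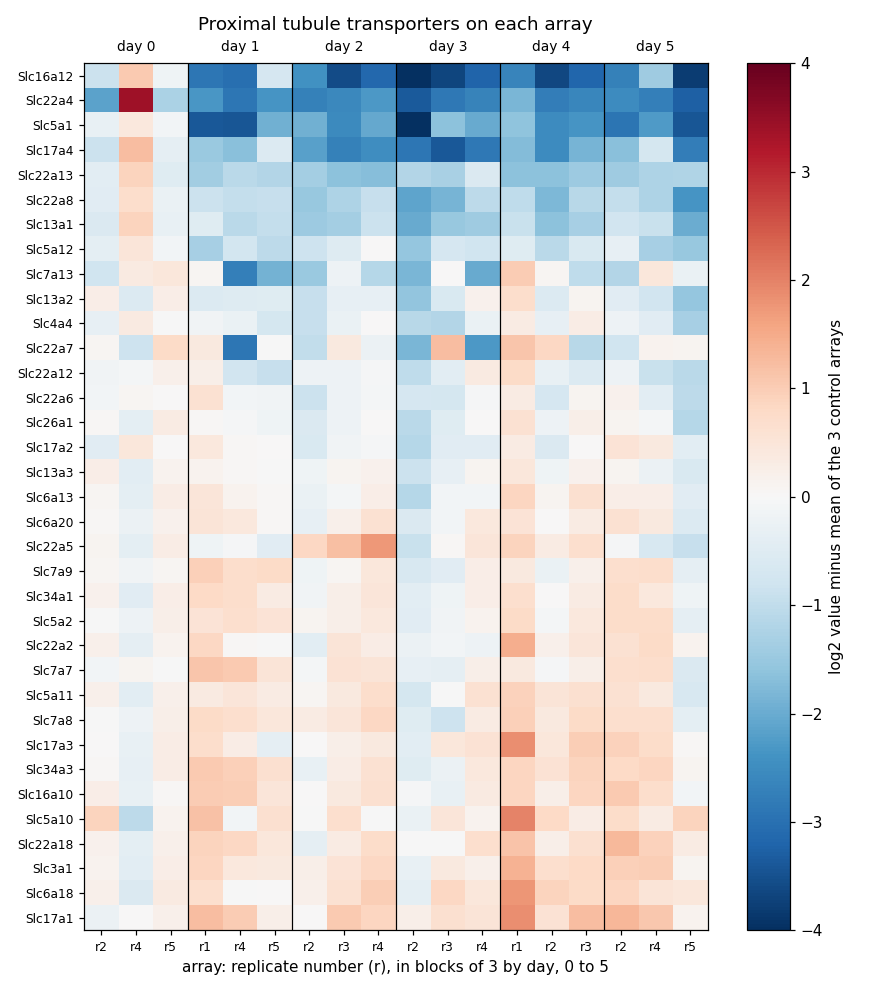
Log2 value of 35 of the 36 proximal tubule transporters tested (rows, ordered by mean change) on each of the 18 arrays (columns, by day and replicate), minus the mean of the 3 controls. A block of carriers from Slc16a12 to Slc5a12 is blue on nearly all treated arrays, most carriers below it stay near white, Slc7a13 and Slc22a7 vary from array to array, and day 3 replicate 2 and day 5 replicate 5 are bluer, and day 4 replicate 1 redder, than the other arrays of their days.

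Of the 36 proximal tubule transporters tested, 17 passed on no day (47.2%, beside 28.8% of all genes), 11 rose on at least 1 day and 8 fell on at least 1 day. Of all 23186 genes 8491 rose and 8083 fell on at least 1 day. Per day, 5, 1, 0, 5 and 2 rose and 5, 7, 8, 7 and 8 fell, and the median of the list was 0.18, 0.08, -0.35, 0.24 and 0.07. As shares of the 36, 13.9%, 2.78%, 0%, 13.9% and 5.56% rose and 13.9%, 19.4%, 22.2%, 19.4% and 22.2% fell. Of all genes 19.2%, 20.8%, 21.7%, 25.6% and 20.9% rose and 20.7%, 25.1%, 26%, 26.7% and 23.4% fell. Both shares of the list were below those of all genes on each day. The moderated F-test called 8 of the 36 (22.2%, beside 53.1% of all genes).

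Slc5a2 encodes SGLT2, the main sodium-glucose cotransporter of the early proximal tubule. Slc5a2 measured 6.98, 6.78 and 7.22 on the controls, 7.54, 7.65 and 7.53 on day 1 and 7.11, 7.21 and 7.43 on day 2. Slc5a2 then gave 6.55, 6.86 and 7.12 on day 3, 7.76, 6.92 and 7.43 on day 4 and 7.73, 7.72 and 6.63 on day 5. The arrays of day 1 lay above the controls, the ranges of days 2 to 5 overlapped with them, and no change passed (largest 0.58 ± 0.28 on day 1, adjusted p = 0.103). Slc34a1 encodes the main sodium-phosphate cotransporter of the brush border. Slc34a1 measured 6.32, 5.70 and 6.43 on the controls, 6.94, 6.85 and 6.49 on day 1 and 6.01, 6.38 and 6.64 on day 2. Slc34a1 then gave 5.73, 5.97 and 6.43 on day 3, 6.81, 6.17 and 6.47 on day 4 and 6.89, 6.57 and 5.97 on day 5, with day 1 just above the controls, the other days overlapping with them and no call (F-test adjusted p = 0.24). The dicarboxylate carrier Slc13a3, which brings in the exchange substrate of organic anion secretion, changed by 0.06, 0.05, -0.36, 0.15 and -0.25 on days 1 to 5, none past the threshold. Neither did the organic anion exchanger Slc22a6 (0.12, -0.37, -0.48, -0.08 and -0.42), the organic cation carrier Slc22a2 (0.28, 0.13, -0.18, 0.72 and 0.51) or the sodium-bicarbonate cotransporter Slc4a4 (-0.37, -0.38, -0.85, 0.10 and -0.66). The median change of all genes was 0.39 to 0.51 over the 5 days with median scaling and -0.69 to -0.48 with the mean of 12 reference genes as the scale, so no direction is given for these small values.

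Slc5a1, 1 of the 8 carriers of this list that fell, encodes SGLT1, the high-affinity sodium-glucose cotransporter of the late proximal tubule. Slc5a1 measured 0.75, 1.47 and 0.92 on the controls, -2.35, -2.38 and -0.86 on day 1 and -0.88, -1.51 and -1.01 on day 2. Slc5a1 then gave -3.02, -0.59 and -0.95 on day 3, -0.56, -1.45 and -1.32 on day 4 and -1.88, -1.20 and -2.36 on day 5. All 15 treated arrays lay below all 3 controls, and the change was -2.91 ± 0.55 on day 1 (adjusted p = 0.00287), -2.18 ± 0.55 on day 2 (0.00595), -2.57 ± 0.55 on day 3 (0.00211), -2.16 ± 0.55 on day 4 (0.00484) and -2.86 ± 0.55 on day 5 (0.00169). Without control replicate 4 the day 1 change was -2.70 (adjusted p = 0.0158) and it passed on all 5 days.

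Slc16a12, a monocarboxylate family member that carries creatine, had the largest fall among the proximal tubule transporters on days 2, 3 and 4. Slc16a12 measured 4.47, 6.37 and 5.14 on the controls, 2.44, 2.32 and 4.66 on day 1 and 2.90, 1.74 and 2.18 on day 2. Slc16a12 then gave 1.16, 1.66 and 2.12 on day 3, 2.69, 1.69 and 2.14 on day 4 and 2.63, 3.91 and 1.51 on day 5. Day 1 replicate 5 lay within the range of the controls and the other 14 treated arrays below it. The change on day 3 was -3.68 ± 0.67, a 12.8-fold fall (adjusted p = 0.000947), and -3.15 without control replicate 4 (0.00636). Slc17a4, an organic anion carrier of the sodium-phosphate family, measured -1.06, 1.03 and -0.55 on the controls, -1.68, -1.88 and -0.75 on day 1 and -2.38, -2.90 and -2.69 on day 2. Slc17a4 then gave -3.08, -3.58 and -3.04 on day 3, -1.93, -2.69 and -2.05 on day 4 and -1.87, -0.91 and -2.96 on day 5. It fell on days 2 to 5, with a change of -3.04 ± 0.52 on day 3 (adjusted p = 0.000721), and without control replicate 4 on days 2, 3 and 4. Day 1 replicate 5 and day 5 replicate 4 lay within the range of the controls.

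Slc22a8, the organic anion exchanger OAT3 of the basolateral membrane, measured 2.59, 3.74 and 2.77 on the controls, 2.18, 2.08 and 2.11 on day 1 and 1.52, 1.80 and 2.11 on day 2. Slc22a8 then gave 0.92, 1.17 and 1.98 on day 3, 2.00, 1.23 and 1.91 on day 4 and 2.08, 1.79 and 0.68 on day 5. Every treated array was below the controls, and the fall passed on days 2 to 5 (day 3 -1.68 ± 0.38, adjusted p = 0.00292), but without control replicate 4 only on days 3 and 5 (-1.32 and -1.16). The sodium-sulfate cotransporter Slc13a1 measured 0.85, 2.32 and 1.13 on the controls, 0.96, 0.35 and 0.47 on day 1 and -0.02, 0.09 and 0.56 on day 2. Slc13a1 then gave -0.59, -0.08 and 0.03 on day 3, 0.54, -0.21 and 0.10 on day 4 and 0.66, 0.53 and -0.54 on day 5, with a called fall on days 2 to 5 (day 3 -1.65 ± 0.38, adjusted p = 0.00305) that passed on day 3 alone without control replicate 4 (-1.21). Slc22a13, a carrier of urate and nicotinate, fell on all 5 days (changes of -1.22, -1.56, -1.03, -1.58 and -1.29), and its fall passed on all 5 also without control replicate 4. The lactate cotransporter Slc5a12 fell on days 1, 3 and 5 (-1.04, -1.0 and -1.06) and on no day without that array.

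Slc22a4, the ergothioneine carrier OCTN1, shows how far 1 array can decide a fall. Slc22a4 measured -2.48, 3.04 and -1.61 on the controls, -2.69, -3.25 and -2.71 on day 1 and -3.06, -2.93 and -2.66 on day 2. Slc22a4 then gave -3.71, -3.20 and -3.01 on day 3, -2.17, -3.12 and -2.97 on day 4 and -2.87, -3.09 and -3.62 on day 5. Control replicate 4 was over 4 log2 units above the other controls, and day 4 replicate 1 lay inside the controls' range. The change of -2.96 ± 0.93 on day 3 (adjusted p = 0.0166) was -1.26 without that control (0.0135), and on days 1, 2 and 4 it then no longer passed. The F-test did not call the gene (adjusted p = 0.0855).

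**Figure D2:**
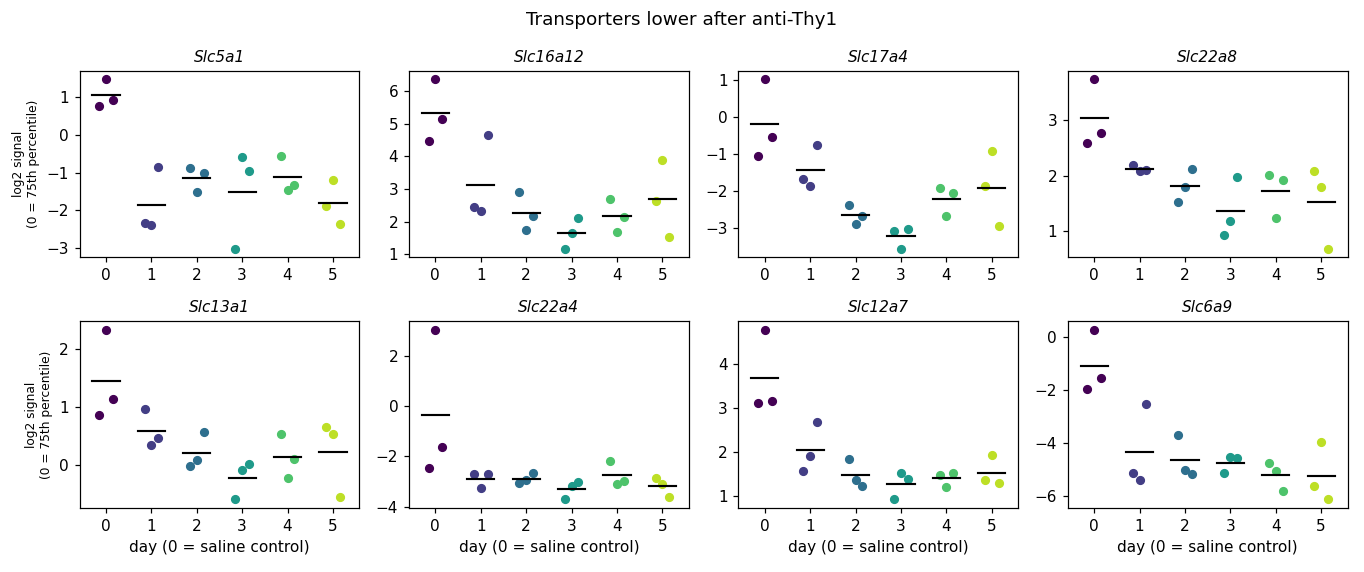
Log2 signal of 8 transporters lower after the antibody, by day; points are the 3 arrays of a day in replicate order and lines their means. Control replicate 4, the middle point on day 0, is the highest control in all 8 panels, and Slc5a1 lies below all controls on every treated array.

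Probes of a transcript disagreed with each other according to position. Among 1398 transcripts with 2 probes at least 1000 bases apart, the downstream probe changed by a median of 0.27, 0.29, 0.22, 0.32 and 0.32 on days 1 to 5 and the upstream probe by -0.38, -0.40, -0.48, -0.46 and -0.44. The downstream probe moved above the upstream one in 79%, 77.5%, 80.1%, 79.3% and 82.5% of the pairs. On single arrays the downstream minus upstream difference had a median of 1.59, 0.88 and 1.53 on the controls, 2.19, 2.23 and 1.75 on day 1 and 1.96, 2.21 and 2.23 on day 2. It was 2.18, 2.18 and 2.24 on day 3, 2.13, 2.28 and 2.25 on day 4 and 2.24, 2.09 and 2.29 on day 5. All 15 treated arrays were thus above all 3 controls, control replicate 4 was the lowest of all, and day 1 replicate 5, where Slc16a12 and Slc17a4 were near their controls, was the lowest treated array. Among other genes that fell, Slc5a1 was at its highest of day 1 on that array and Slc12a3 at its lowest. The part of probe position in the falls was not tested.

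Members with 2 probes far apart showed the same contrast. There were 10 such members, and in 9 of the 10 the downstream probe moved above the upstream probe on each of the 5 days. The cationic amino acid carrier Slc7a1 rose at base 5997 by 1.74, 1.31, 1.46, 0.84 and 1.13 on days 1 to 5, while its exon-joining probe at base 1682, printed above, changed by -1.28, -1.19, -1.22, -1.77 and -1.13. For the carnitine carrier Slc22a5 the probe at base 2757 changed by -0.23, 1.26, -0.12, 0.62 and -0.55 and the probe at base 1159 by -2.40, -2.13, -2.69, -2.89 and -2.92. The sodium-potassium-chloride cotransporter Slc12a2 changed by 0.75, 1.00, 1.36, 1.49 and 0.96 at base 4967 and by -0.68, -0.81, -0.48, -0.63 and -0.55 at base 1825, its brightest probe. In Slc12a7, a potassium-chloride cotransporter, the brightest probe at base 155 changed by -1.63, -2.20, -2.41, -2.28 and -2.15, the exon-joining probe at base 2768 by 0.07, 0.14, -0.54, 0.04 and -0.20 and the probe at base 4607 by 0.69, 0.26, 0.15, 0.45 and 0.41. In these 4 genes the probes moved in opposite directions on at least 2 days. In Slc13a1 the probe at base 33 (-1.22, -1.77, -2.28, -1.94 and -1.27) moved the same way as the brightest at base 1402, and in Slc5a2 the probe at base 1948 (0.69, 0.21, -0.12, 0.41 and 0.51) followed the brightest at base 2189. Of 17 members with 2 or more probes past the filter, 13 had probes of opposite sign on some day. Reading each gene from its most downstream probe, an alternative chosen after seeing the data, kept 21 of the 22 calls of lower members on day 3. Only those 17 members could change probe in this reading, so the count says little about probe position.

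**Figure D3:**
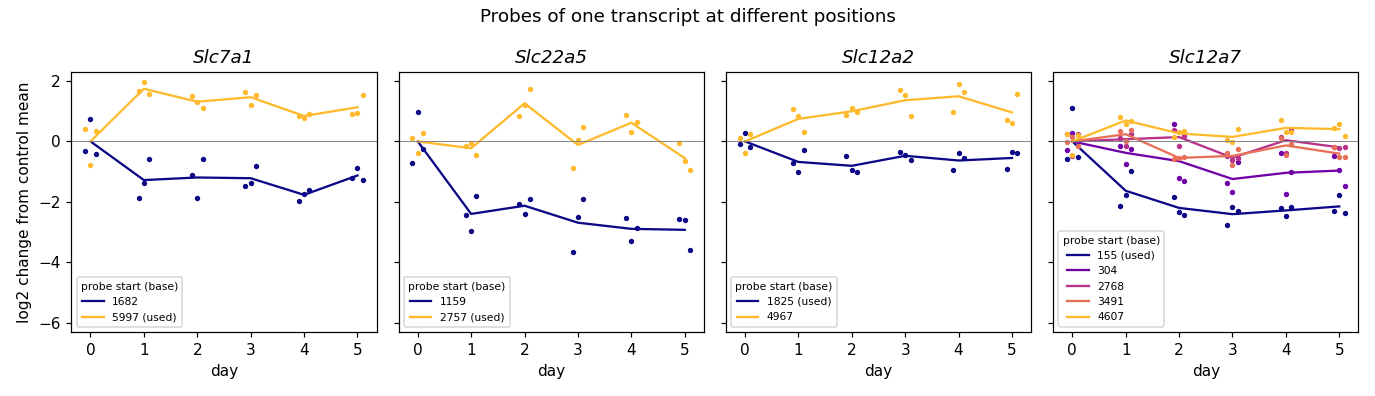
Log2 change from the control mean for every probe past the filter of 4 members, by day; points are arrays, lines are day means, and the legend gives the probe's first base in the transcript and marks the brightest probe, used for the gene. In each panel the most downstream probe (yellow) lies above the most upstream one (dark blue) on every treated day.

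Among the members that rose, Slc7a1 was the only one called on all 5 days, where 9.29% of all genes were. At base 5997 Slc7a1 measured -1.80, -2.99 and -1.88 on the controls, -0.55, -0.25 and -0.64 on day 1 and -0.71, -0.91 and -1.11 on day 2. Slc7a1 then gave -0.57, -1.02 and -0.68 on day 3, -1.38, -1.45 and -1.32 on day 4 and -1.32, -1.29 and -0.68 on day 5, all above the controls. The rise was 1.74 ± 0.27 on day 1 (adjusted p = 0.00154) and 0.84 ± 0.27 on day 4 (0.0177), and without control replicate 4 it was 1.36 and 0.46, the latter not past the threshold. The probe at base 1682 moved the opposite way, as given above.

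Slc6a8, the creatine carrier of the plasma membrane, measured 6.31, 5.43 and 6.33 on the controls, 7.40, 7.54 and 7.07 on day 1 and 6.28, 6.75 and 6.64 on day 2. Slc6a8 then gave 6.12, 6.04 and 6.53 on day 3, 6.60, 6.27 and 6.62 on day 4 and 7.45, 7.11 and 6.48 on day 5. It rose on day 1 by 1.31 ± 0.28 (adjusted p = 0.00412) and on day 5 by 0.99 ± 0.28 (0.0102); its exon-joining probe at base 2078 changed by 1.09, 0.36, -0.03, 0.31 and 0.57, and without control replicate 4 the day 1 rise was 1.02 and the day 5 change, 0.70, did not pass. Slc16a3, the lactate exporter MCT4 of glycolytic cells, measured -0.11, -1.06 and -0.37 on the controls, 0.90, 1.52 and 0.65 on day 1 and 0.79, 0.46 and -0.18 on day 2. Slc16a3 then gave 1.27, 0.66 and 0.71 on day 3, -0.32, 0.53 and 0.44 on day 4 and 0.01, -0.01 and 1.43 on day 5, with rises on days 1 and 3 (1.54 ± 0.40 and 1.39 ± 0.40, adjusted p = 0.00992 and 0.0109) that did not pass without control replicate 4 (1.26 and 1.12). Basigin, Bsg, the partner that brings lactate carriers to the membrane, rose on days 1, 4 and 5 (0.71, 0.55 and 0.75), and embigin, Emb, which does the same for Slc16a7 and others, rose on all 5 (1.06, 1.04, 0.84, 1.07 and 0.91). The vitamin carrier Slc5a6 rose on days 1, 4 and 5 by 0.58, 0.53 and 0.64, and against the reference genes its day 1 and day 4 changes were -0.01 and -0.21.

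Among the 5 proximal tubule transporters that rose on day 1 were the phosphate cotransporter Slc34a3 (0.87 ± 0.28, adjusted p = 0.0249), the cystine carrier subunit Slc7a9 (0.80 ± 0.29, 0.0413), the basolateral cationic amino acid exchanger Slc7a7 (0.89 ± 0.31, 0.0337) and the aromatic amino acid carrier Slc16a10 (0.83 ± 0.29, 0.0374). Slc34a3 measured 4.19, 3.83 and 4.43 on the controls and 5.18, 5.10 and 4.78 on day 1, with no overlap. None of the 5 passed without control replicate 4. Slc3a1, the heavy chain that Slc7a9 needs, changed by 0.56, 0.53, 0.10, 0.95 and 0.68 and rose on day 4 alone; the sodium-hydrogen exchanger of the same membrane, Slc9a3, a marker here, likewise rose on day 4 (1.06). Slc6a18, Slc17a1 and Slc17a3, which carry glycine and organic anions, rose on day 4 as did Slc34a3 (1.14, 1.23, 1.09 and 0.79), and of the 5 proximal members higher on day 4, Slc17a1 alone passed without control replicate 4 (1.23). Slc22a18, an organic cation carrier, rose on day 5 (0.85). Outside the proximal list, Slc16a4 rose on days 1, 4 and 5 (1.02, 1.36 and 1.26) and Slc5a4, a glucose carrier family member, on days 1 and 3 (1.04 and 0.93). Without control replicate 4, of these Slc16a4 alone still passed, on day 4 (1.13).

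A different time course was seen for Slc22a5 and Slc16a1. Slc22a5, the carnitine carrier OCTN2, measured 0.56, 0.06 and 0.74 on the controls, 0.29, 0.40 and -0.01 on day 1 and 1.28, 1.66 and 2.20 on day 2 at its brightest probe. Slc22a5 then gave -0.42, 0.51 and 0.93 on day 3, 1.34, 0.77 and 1.11 on day 4 and 0.39, -0.20 and -0.48 on day 5. Slc16a1, the lactate carrier MCT1, measured 0.21, 0.57 and 0.64 on the controls, 0.24, 0.50 and -0.59 on day 1 and 1.11, 1.48 and 2.26 on day 2. Slc16a1 then gave -0.16, 0.99 and 1.53 on day 3, 1.48, 0.86 and 1.22 on day 4 and 0.13, 0.72 and -0.46 on day 5. In both genes the 3 arrays of day 2 were above all 3 controls and above all arrays of days 1 and 5. The day 2 rise was 1.26 ± 0.34 for Slc22a5 (adjusted p = 0.00787, F-test 0.00523) and 1.14 ± 0.43 for Slc16a1 (0.0397, F-test 0.032); without control replicate 4 it was 1.06 (0.0436) and 1.19 (0.0826). Days 2 and 4, the 2 days of the other scan day, had the highest means of both genes. The upstream probe of Slc22a5 was at 0.80, 2.47 and 1.25 on the controls and -0.58, -0.89 and -0.39 on day 2, all 3 below them, so the day 2 peak was seen at the downstream probe.

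**Figure D4:**
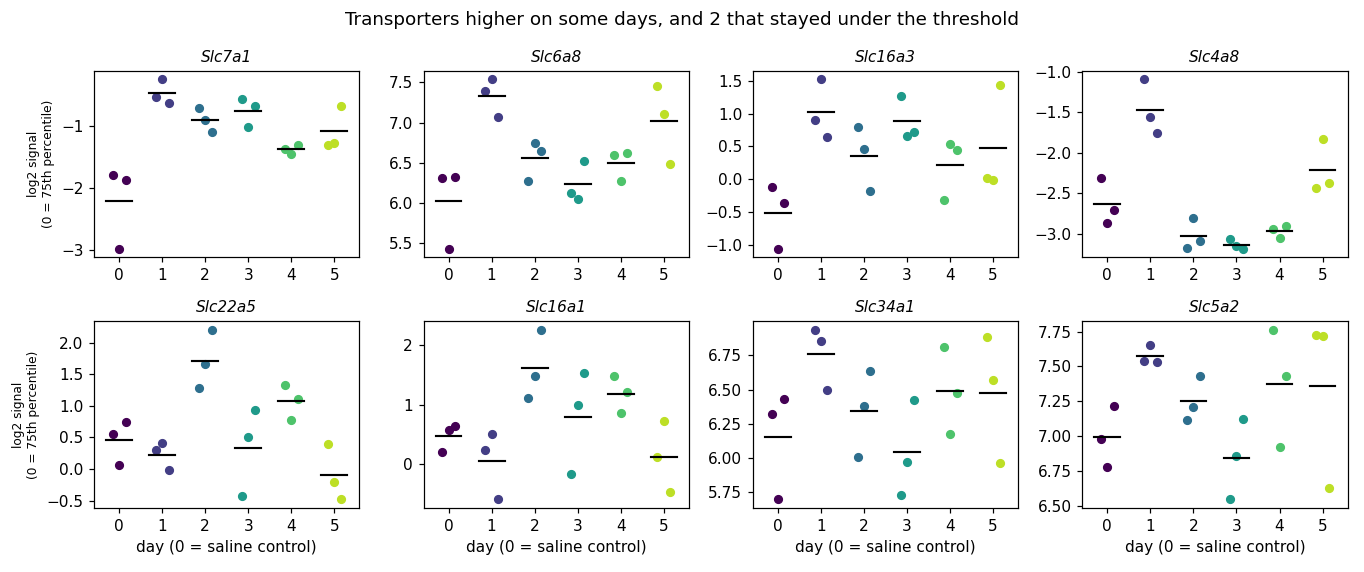
Log2 signal by day for 6 members that rose on at least 1 day and for Slc34a1 and Slc5a2, which passed on none; points are the 3 arrays of a day in replicate order and lines their means. Slc4a8 stands above the controls on day 1, Slc22a5 and Slc16a1 on day 2, and Slc34a1 and Slc5a2 overlap with the controls on days 2 to 5.

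The amino acid carriers of ordinary cells were measured in part. Slc3a2, the heavy chain shared by the L and xc carriers, changed by 0.48, 0.08, -0.06, 0.20 and 0.34 with no call, and its partners Slc7a5, Slc7a6 and Slc7a11, like Slc7a2, were not above background on all arrays of any day and were not tested. Slc7a8, the light chain LAT2 of epithelia, changed by 0.63, 0.54, -0.33, 0.70 and 0.31 and did not pass. From a list of 13 genes of the amino acid starvation response, to which Slc7a1 is known to respond, 7, 5, 5, 6 and 5 rose and 0, 0, 1, 1 and 0 fell on days 1 to 5. Of all genes 19.2%, 20.8%, 21.7%, 25.6% and 20.9% rose, and of the 12 reference genes 7, 7, 9, 10 and 8. The median of the list was 0.58, 0.49, 0.36, 0.53 and 0.27, and 4, 3, 3, 2 and 2 of the 13 were below 0. Counts without control replicate 4 are not given, and a link to Slc7a1 was not tested. The folate enzyme Mthfd2 changed by 1.88, 2.64, 3.23, 1.98 and 1.99, the translation inhibitor Eif4ebp1 by 1.61, 1.70, 2.46, 1.90 and 1.78 and asparagine synthetase, Asns, by 1.29, 1.09, 1.72, 1.20 and 1.15, each called on all 5 days. The taurine carrier Slc6a6 measured -0.32, 2.11 and 0.09 on the controls and -0.76, -0.77 and -0.39 on day 3; it fell on days 1, 2, 3 and 5, and without control replicate 4 its change was -0.41, -0.58, -0.52, -0.24 and -0.44, past the threshold on day 2 alone. The inositol carrier Slc5a3 changed by -0.76, -0.19, -0.27, 0.24 and -0.12 with no call.

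Of the 22 broadly expressed transporters tested, 6, 2, 3, 2 and 5 rose and 3, 6, 5, 4 and 6 fell on days 1 to 5, the median was 0.06, -0.06, -0.09, 0.11 and 0.22, and 8 changed by the F-test (36.4%, beside 53.1% of all genes). As shares of the 22, 27.3%, 9.09%, 13.6%, 9.09% and 22.7% rose and 13.6%, 27.3%, 22.7%, 18.2% and 27.3% fell. Of all genes 19.2%, 20.8%, 21.7%, 25.6% and 20.9% rose and 20.7%, 25.1%, 26%, 26.7% and 23.4% fell. The anion exchanger Slc4a2 rose on days 1 and 5 (0.53 and 0.46), the bicarbonate cotransporter Slc4a7 on day 3 (1.01 ± 0.31, adjusted p = 0.0154) and Slc12a9 on days 1 and 5 (0.80 and 0.55). The 12 reference genes had a median change of 0.47 on day 1 and 0.52 on day 5. With their mean as the scale, 0 members rose on day 5. The lysosomal sialic acid carrier Slc17a5 fell on days 2, 3 and 5 (-0.68, -0.93 and -0.72). Slc12a7 measured 3.1, 4.78 and 3.15 on the controls and 0.92, 1.51 and 1.39 on day 3 at base 155, a change of -2.41 ± 0.39 (adjusted p = 0.000646) that was not seen at base 4607. Without control replicate 4, Slc12a7 passed on all 5 days, Slc17a5 on day 3, Slc12a9 on day 1, and Slc4a2 and Slc4a7 on none.

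Of the 6 transporters of the loop, distal tubule and collecting duct tested, 1 fell on at least 1 day and 5 passed on none (83.3%, beside 28.8% of all genes). Slc12a3, the thiazide-sensitive sodium-chloride cotransporter of the distal convoluted tubule, measured -0.43, -0.32 and -0.34 on the controls, -1.22, -0.61 and -1.70 on day 1 and -1.07, -0.63 and -0.30 on day 2. Slc12a3 then gave -1.72, -1.19 and -1.48 on day 3, -0.59, -1.36 and -1.10 on day 4 and -1.29, -1.45 and -1.35 on day 5. The 3 controls lay close together, every array of days 1, 3, 4 and 5 was below them, and the fall passed on days 1, 3 and 5 (-0.81 ± 0.27, -1.10 ± 0.27 and -1.0 ± 0.27, adjusted p = 0.0267, 0.00408 and 0.0085). Without control replicate 4 it was -0.79, -1.08 and -0.98, past the threshold on days 3 and 5. Its kinase regulator Wnk4 fell on all 5 days (-0.89, -0.75, -1.37, -1.15 and -1.09), and Stk39, a kinase that phosphorylates the cotransporter, rose on days 4 and 5 (1.05 and 0.93). The loop cotransporter Slc12a1 changed by 0.00, 0.02, 0.00, 0.61 and 0.58, the chloride-iodide exchanger Slc26a4 of intercalated cells by -0.10, 0.10, -0.14, 0.02 and 0.43 and the anion exchanger Slc4a1, which red cells share, by -0.35, -0.77, -0.48, -0.67 and 0.41, with no call in any. Without control replicate 4, the lowest control of Slc4a1, that gene fell on days 2, 3 and 4 (-1.19, -0.90 and -1.08). Slc4a9, an anion exchanger family member of intercalated cells, changed by -0.20, -0.01, -0.51, -0.56 and -0.32 with no call, and without that array it fell on days 3 and 4 (-0.70 and -0.75, adjusted p = 0.044 and 0.0291). Of the 17 markers of these segments tested, 0, 0, 0, 0 and 1 rose and 2, 5, 9, 7 and 2 fell. As shares of the 17, 0%, 0%, 0%, 0% and 5.88% rose and 11.8%, 29.4%, 52.9%, 41.2% and 11.8% fell. Of all genes 19.2%, 20.8%, 21.7%, 25.6% and 20.9% rose and 20.7%, 25.1%, 26%, 26.7% and 23.4% fell.

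Neuronal and other-organ transporters were tested in 13 of 29 cases. Slc6a9, the glycine carrier GlyT1, measured -1.97, 0.27 and -1.55 on the controls, -5.11, -5.38 and -2.54 on day 1 and -3.68, -5.02 and -5.14 on day 2. Slc6a9 then gave -5.13, -4.51 and -4.54 on day 3, -4.75, -5.03 and -5.80 on day 4 and -5.60, -3.95 and -6.11 on day 5, all below the controls. It was above background on all 3 controls but on 1, 1, 2, 1 and 1 arrays of days 1 to 5, so its differences of -3.26, -3.53, -3.64, -4.11 and -4.14 rest mostly on values not well above background. Slc6a9 entered the test through the controls alone, where it is high, and its calls on all 5 days are given as a description. Slc34a2, the sodium-phosphate cotransporter of lung and gut, measured -2.75, -1.50 and -2.84 on the controls and was above background on 1, 0, 0, 1 and 1 arrays of days 1 to 5. Its fall on days 2 and 3 is therefore a bound, at least 5.19-fold and at least 5.25-fold lower, set by the lowest signal above background on those arrays (adjusted p = 0.00517 and 0.00243). Slc34a2 too entered through the controls alone, and these p-values are likewise a description. Its other probe, at base 3316, was above background on 4 of the 18 arrays and did not enter. Slc6a17, a neutral amino acid carrier, measured -0.78, -1.53 and -0.69 on the controls and -0.70, -0.75 and -1.55 on day 1. Slc6a17 then gave -2.14, -1.70 and -1.71 on day 2, -1.37, -2.08 and -2.01 on day 3, -1.39, -2.42 and -1.93 on day 4 and -0.58, -0.52 and -0.66 on day 5. It fell on days 2, 3 and 4 (-0.85 ± 0.30, -0.82 ± 0.30 and -0.91 ± 0.30, adjusted p = 0.0335, 0.0375 and 0.0209), its falls were larger without control replicate 4 (-1.11, -1.08 and -1.18), and day 3 replicate 2 and day 4 replicate 1 lay within the range of the controls. The arrays of day 5 lay just above the controls.

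Comparisons of treated days with each other, within one scan day, called 1 member. Slc4a8, a sodium-driven chloride-bicarbonate exchanger, measured -2.32, -2.87 and -2.71 on the controls, -1.09, -1.56 and -1.76 on day 1 and -3.17, -2.81 and -3.09 on day 2. Slc4a8 then gave -3.07, -3.15 and -3.19 on day 3, -2.94, -3.05 and -2.90 on day 4 and -2.44, -1.83 and -2.37 on day 5. It rose on day 1 (1.16 ± 0.20, adjusted p = 0.00238; 1.04 without control replicate 4) and was lower on day 3 than on day 1, with a day 3 minus day 1 difference of -1.67 ± 0.20 (adjusted p = 0.0165), with no overlap. The call was lost with median or quantile scaling, with either normexp setting, with the slide as a fixed block or the replicate number as a block, in a fit of scan day 1 alone, and without day 1 replicate 1 or day 3 replicate 3. It was the 1 gene called among all 23186 in that comparison (0.00431%). No member was called for day 5 against day 3, where 0.00863% of all genes were. None was called for day 5 against day 1, where 0.0906% were higher and 0.0302% lower (0.121% in all), or for day 4 against day 2, where 0.0604% were higher and 0.0388% lower (0.0992% in all). Without day 5 replicate 5, 4 members were called for day 5 against day 3. The share of all genes called in that setting is not given here, so this count cannot be set against a background. Slc16a14, an orphan of the monocarboxylate family, measured 2.92, 2.67 and 3.11 on the controls, 0.92, 1.53 and 1.61 on day 3 and 2.68, 2.44 and 1.78 on day 5; it fell on days 2 and 3 (-1.16 ± 0.26 and -1.55 ± 0.26, adjusted p = 0.00311 and 0.000685), its fall was -1.66 on day 3 without control replicate 4, and its day 5 against day 3 difference of 0.95 ± 0.26 had an adjusted p of 0.172.

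Arrays of one day differed in how much of all the proximal tubule transporters they held, and the tubule markers moved with them. The median change of the 36 transporters from the control mean was 0.46, 0.01 and -0.02 on the 3 arrays of day 1, -0.31, 0.16 and 0.22 on day 2, -0.78, -0.32 and 0.14 on day 3, 0.73, -0.01 and 0.27 on day 4 and 0.40, 0.35 and -0.49 on day 5. The 19 proximal tubule markers had medians of 0.57, 0.43 and 0.37, -0.26, 0.36 and 0.53, -0.52, -0.11 and 0.20, 1.03, 0.23 and 0.50 and 0.69, 0.57 and -0.31 on the same arrays. The lowest array of each of days 1, 2, 3 and 5 was thus the same for both lists, and so was the highest array of day 4, replicate 1. Broadly expressed transporters had medians of 0.20, 0.16 and -0.03 on day 1 and -0.20, -0.01 and 0.06 on day 2. They gave -0.30, -0.20 and 0.27 on day 3, 0.15, -0.10 and 0.04 on day 4 and 0.20, 0.33 and 0.02 on day 5. Their lowest array was that of the proximal transporters on each day, so this order was shared outside the proximal lists. The macrophage markers had medians of 2.50, 2.61 and 1.99 on the arrays of day 1, 2.38, 3.07 and 2.03 on day 2, 3.03, 2.73 and 3.21 on day 3, -0.08, 1.89 and 1.6 on day 4 and 0.49, 0.35 and 2.69 on day 5. On day 4 the array highest in transporters, replicate 1, was the lowest in macrophage markers, and on day 5 the array lowest in transporters, replicate 5, was the highest in them. On day 2 the array highest in transporters, replicate 4, was also the lowest in macrophage markers. The highest in macrophage markers that day was replicate 3, the middle array for the transporters. On day 3 replicate 4 was the highest in both, and on day 1 replicate 5 was the lowest in both. On days 1 to 5, 8, 9, 9, 4 and 2 of the 10 macrophage markers rose and none fell, where 19.2%, 20.8%, 21.7%, 25.6% and 20.9% of all genes rose. The part of tubule content in the changes of the transporters was not tested.

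**Figure D5:**
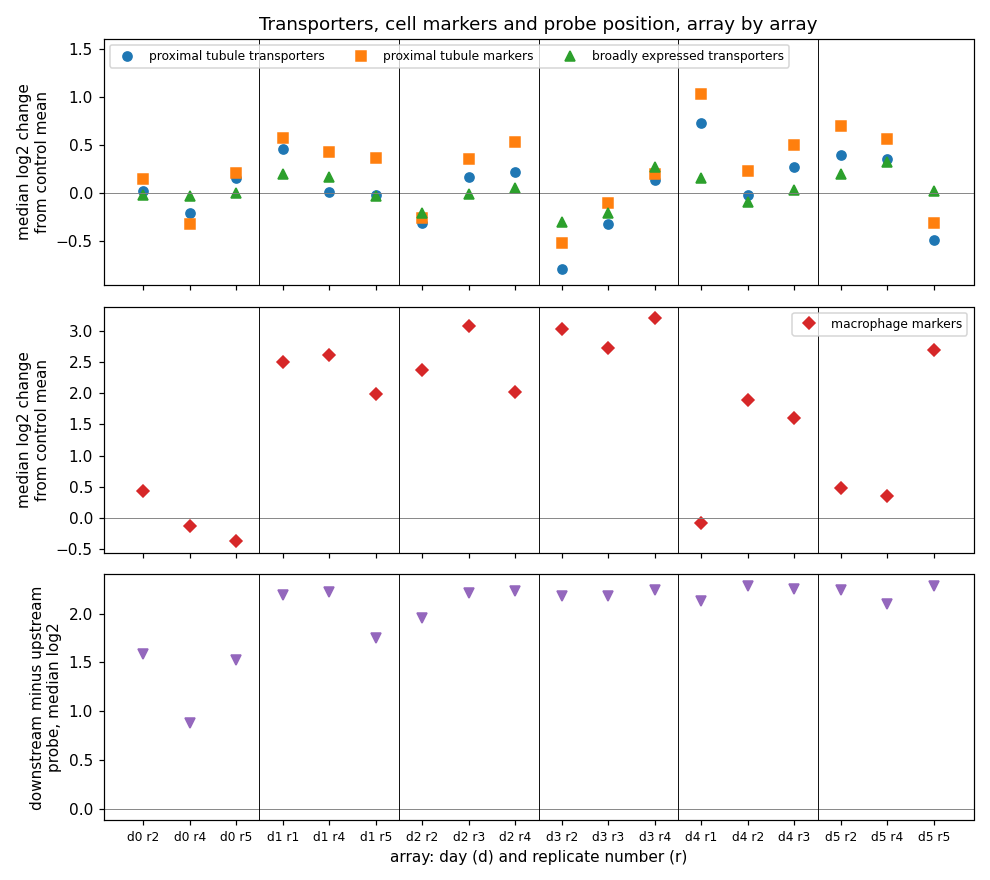
Array by array, the median log2 change from the control mean of proximal tubule transporters, proximal tubule markers and broadly expressed transporters (top) and of macrophage markers (middle), and the median log2 difference of downstream and upstream probes over 1398 transcripts (bottom). Proximal tubule transporters and proximal tubule markers are lowest on day 3 replicate 2 and highest on day 4 replicate 1. The probe difference is 0.88 on control replicate 4 and between 1.75 and 2.29 on treated arrays.

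Partners and regulators outside the rule gave further values for the same pathways. Of 21 such genes tested, 4, 3, 1, 7 and 4 rose and 2 fell on each day. The rises were 19%, 14.3%, 4.76%, 33.3% and 19% of the 21, beside 19.2%, 20.8%, 21.7%, 25.6% and 20.9% of all genes. The falls were 9.52% on each day, beside 20.7%, 25.1%, 26%, 26.7% and 23.4% of all genes. Cltrn, the collectrin that brings neutral amino acid carriers to the brush border, rose on days 2, 4 and 5 (0.87, 1.27 and 0.80). The factor Hnf4a, which drives proximal tubule genes, did not pass (0.46, 0.07, -0.13, 0.57 and 0.05). The vitamin D receptor Vdr fell on each day (-2.39, -1.69, -1.96, -2.63 and -2.27). The sodium pump subunit Atp1b1 did not pass (0.29, 0.20, -0.03, 0.52 and 0.31). For these and the other named genes outside the rule, values without control replicate 4 are not given here.

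The 26 members not tested were 16 neuronal and other-organ transporters, 4 broadly expressed ones, 4 others, Slc26a7 and Slc5a9. Slc5a9, a sugar carrier, was above background on 2 of 18 arrays and Slc26a7, a chloride exchanger of the collecting duct, on 4, and neither has a level here. The brush border neutral amino acid carrier Slc6a19 was not among the genes the rule found, and is not analysed here.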

How the data were processed

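RNA of glomeruli was measured on 18 single-colour Agilent arrays. Per the file headers, the authors made the processed intensity with Feature Extraction 10.7.3.1, after background subtraction and detrending within the array and with no scaling between arrays; mean and background intensities deposited in the same files served an alternative. The log2 value table the authors deposited was used as an alternative for days 2 and 4; the steps behind its scale and centring are unstated.

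Control and outlier-flagged spots were left out, spots of a probe averaged, log2 taken and the array's 75th percentile (180.7 to 452.4) subtracted. Between 22648 and 28530 probes per array were well above background; the number of arrays limits the precision. Of 41012 probes 27837 passed the filter. The brightest probe represented a gene; 57 values were missing. The fit used limma 3.58.1 in R 4.3.3 and was tested on simulated data; the threshold was an adjusted p of 0.05. Names other than members' were updated through a RefSeq table of assembly GRCr8 (19214 probes matched none); 3 probes outside the rule whose updated symbol matches it were not used.

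The members, gene lists and tests were chosen with earlier results of these data known. Named members were, per day and direction, the 6 largest called changes, up to 3 called changes per comparison within a scan day, and 30 chosen by role; others named in the text were chosen after their values were seen. A few genes are included in the counts but not reported singly here. Slide, scan day, scaling, filter, probe choice, replicate number and single arrays were varied.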

Additional observations from a re-analysis of the deposited data

Results flagged for a closer look

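The change of Slc4a8 from the controls differed between day 1 and day 3, tested directly within one scan day: its log2 signal was lower on all 3 arrays of day 3, with a day 3 minus day 1 difference of -1.67, and the call was lost under the settings named with it in the report. Groups held 3 arrays, too few to look for single outlying arrays by a rule.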

How the results depend on the processing

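In all alternatives the first number is day 1 and the last day 5 unless said otherwise, medians are of the proximal and then the broadly expressed transporters, and the cause of each difference was not tested. With median scaling 25, 13, 10, 32 and 33 members were higher and 7, 9, 13, 10 and 10 lower; the proximal median was 0.52, 0.47 and 0.66 on days 1, 2 and 4, the broad median 0.40, 0.32, 0.31, 0.53 and 0.67, and the day 3 against day 1 count 0. With quantile normalization 9 were higher on day 1 (18.8% of all genes), the broad median was -0.0845 on day 4 and -0.0022 on day 5, and day 3 against day 1 gave 0. With reference gene scaling 4, 1, 1, 0 and 0 were higher and 36, 36, 61, 38 and 33 lower, 47 passed the F-test, the proximal median was -0.41, -0.44, -1.0, -0.51 and -0.55 and the broad one -0.53, -0.59, -0.75, -0.64 and -0.40; the sign turned for Slc5a6 (-0.0089, -0.44 and -0.21 on days 1, 3 and 4), Slc12a1 (-0.66 on day 3), Slc13a3 (-0.60 on day 4) and Slc26a4 (-0.72 on day 4). With normexp background correction 0, 1, 0, 0 and 0 were higher, 0, 5, 6, 8 and 0 lower and 3 passed the F-test, the proximal median was -0.14 on day 1, the broad one 0.0411 on day 5 and day 3 against day 1 gave 0. The shares of all genes were then 0.0388%, 2.37%, 3.33%, 5.55% and 0.0129% higher and 0.0819%, 4.01%, 3.32%, 5.67% and 0.229% lower. That setting scaled day 1 replicate 1 and day 5 replicate 5 to percentiles of 1284 and 1168.1. Leaving out 8 and 4 spots with extreme local background there, chosen after seeing the data, gave 22 lower on day 1, 7 higher and 32 lower on day 2, 2 higher on day 3, 13 higher and 30 lower on day 4, 43 by the F-test, 0 for day 3 against day 1, and broad medians of -0.12 on day 1 and 0.0098 on day 5. Among all genes 28% were then lower on day 1, and 20.8% higher and 39.9% lower on day 2. On day 3, 19.9% were higher, and on day 4, 23.3% higher and 40.9% lower. Without the filter 5 were higher on day 5 (11.9% of all genes) and the broad median was -0.0629 on day 4. With the mean of a gene's probes 1 was higher on day 2 (20% of all genes), and Slc12a2 (0.0332, 0.0946 and 0.43 on days 1, 2 and 4), Slc22a5 (-0.43 and -1.14 on days 2 and 4) and Slc7a1 (-0.46 on day 4) turned sign. With the most downstream probe the broad median was 0.35, 0.0745 and 0.24 on days 1, 2 and 4, and Slc12a7 (0.69, 0.26, 0.15, 0.45 and 0.41) and Slc12a2 (0.75, 1.00, 1.36, 1.49 and 0.96) turned sign. With the slide as a fixed block 4, 0, 0, 1 and 0 were higher and 6, 2, 8 and 0 lower on days 1, 2, 3 and 5; the proximal median was 0.46 and -0.75 on days 1 and 2, the broad one 0.20, -0.25 and -0.16 on days 1, 2 and 5, the counts for day 3 against 1, day 5 against 3 and day 5 against 1 were 0, 1 and 1, and Slc5a4 on day 3 was -0.0522. Days 2 and 4 shared no slide with the other days, so a fixed slide block cannot compare them with day 0. The counts and medians printed for days 2 and 4 in that setting are therefore not changes from day 0. No conclusion is drawn from them. As a random block (consensus correlation -0.03) the slide kept all 84 calls of named members. Replicate numbers share only a number: residuals of the 27 same-numbered pairs correlated with a median of -0.03 and those of 108 other pairs with 0.0030. With the replicate block 6 were higher on day 1 (12.7% of all genes), 13 lower on day 2 (19.8%) and 0 higher on day 4 (15.6%). The proximal median was then -0.10 on day 1 and day 3 against day 1 gave 0. Scan day 1 alone gave 8 higher on day 1 (13.7% of all genes) and 0 for day 3 against day 1. With only the 6 arrays compared 7 were higher and 3 lower on day 1 (6.23% and 8.03% of all genes). On day 5, 1 was higher and 8 lower (6.05% and 14.7%). In the deposited value table the broad median on day 4 was -0.0880. Leaving out 1 array at a time, the count of higher members ranged from 4 to 15, 2 to 5, 1 to 4, 2 to 11 and 1 to 14 and that of lower members from 5 to 15, 11 to 22, 16 to 24, 13 to 20 and 10 to 20, the F-test count from 18 to 38, day 3 against day 1 from 0 to 1 and day 5 against day 3 from 0 to 4. Beside control replicate 4, counts moved by over 1.5 times without day 1 replicate 1 (6 higher and 6 lower on day 1), day 1 replicate 4 (4 and 6), day 2 replicate 2 or 3 (13 or 11 lower on day 2), day 3 replicate 2 (2 higher on day 3), day 4 replicate 1 (2 higher on day 4), day 5 replicate 2 or 4 (4 or 5 higher on day 5) and day 5 replicate 5 (5 higher on day 2, 14 higher and 11 lower on day 5). In the same order, the shares of all genes were 11% and 12.3%, 9.5% and 11.6%, 23.9% or 19.1%, 15.6%, 23.3%, and 16.5% or 18%. Without day 5 replicate 5 they were 21.5% higher on day 2, and 17.8% higher and 17.8% lower on day 5. No F-test was run with the slide as a fixed block, scan day 1, 6 arrays or the deposited table. Shares of all genes with median scaling, reference gene scaling and the fixed slide block are given in the results. Those for F-test counts and for comparisons between treated days in the alternatives are not given. Dim probes limit Slc6a9 and Slc34a2.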
